A study of Mus musculus with 2 samples.

Results

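The cells described here are the mouse hematopoietic stem cells (HSC) in culture with the highest transcript levels of a small hypoxia programme. Each cell was scored by the mean deposited natural-log value over Egln3, Ankrd37, Bnip3, Mgarp and Ndrg1, and the 10% of all pooled cells with the highest score were taken. This gave 1856 of 18560 cells, called high-programme cells or members below. The score chose the cells, so the levels of these 5 genes, and every other difference between members and the remaining cells of the same libraries, are descriptions and carry no test.

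HSC were sorted as Lineage-, c-Kit+, Sca-1+, CD150+, CD48- cells from marrow pooled from 8 C57/B6 mice aged 6 to 8 weeks. They were held for 48 h in medium with stem cell factor at 100 ng/ml and thrombopoietin at 50 ng/ml, together with 10 µM of the iron chelator deferoxamine (DFO) or with sterile water as vehicle. Each condition is 1 droplet library of transcript 3′ ends with molecular identifiers (UMIs), with 8708 vehicle cells and 9852 DFO cells. With 1 library per condition no p-value is given, and the intervals below are exact 95% intervals for counting error alone. The cells are what the sorted cells had become after culture, from pooled animals, so neither mouse-to-mouse nor culture-to-culture variation can be read from them. The labels do not say whether both libraries came from the same sort, so sort and treatment cannot be told apart in any DFO and vehicle difference below.

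Cells sense oxygen through prolyl hydroxylases of the EGLN family, enzymes that need oxygen and ferrous iron and mark the alpha subunits of hypoxia-inducible factor (HIF) for destruction by the VHL ubiquitin ligase. When hydroxylation slows, HIF accumulates, pairs with ARNT and binds short motifs with the core ACGTG or GCGTG. Its targets raise glucose uptake, glycolysis and lactate export and lower the supply of pyruvate to mitochondria. HSC reside in marrow of low oxygen pressure and are known for a glycolytic metabolism under HIF control.

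Of the genes that chose the cells, Egln3 encodes a HIF prolyl hydroxylase that is itself a HIF target. Bnip3 encodes a receptor on the outer mitochondrial membrane that directs mitochondria to autophagy, and Mgarp a protein of the mitochondrial membrane. Ankrd37 encodes a small ankyrin-repeat protein, and Ndrg1 a cytoplasmic stress-response protein. In the GENCODE annotation of mouse build GRCm38 (mm10), Egln3 lies at chr12:54178981-54203860, Ankrd37 at chr8:45996902-46005707, Bnip3 at chr7:138890836-138909519, Mgarp at chr3:51388412-51396738 and Ndrg1 at chr15:66929318-66969640, all on the minus strand.

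Promoter windows of 250 bases before the RefSeq transcript start (build GRCm38.p6) are printed for 4 of the genes that chose the cells and for 3 genes outside the rule that stood among the highest in the members, since ACGTG and GCGTG are the cores HIF is known to bind. Capitals mark every ACGTG or GCGTG on either strand, so CACGT and CACGC are capitals too, and overlapping matches merge into 1 run. Each window reads 5′ to 3′ on the strand of its gene.
Egln3, chr12:54203875-54204124, minus strand: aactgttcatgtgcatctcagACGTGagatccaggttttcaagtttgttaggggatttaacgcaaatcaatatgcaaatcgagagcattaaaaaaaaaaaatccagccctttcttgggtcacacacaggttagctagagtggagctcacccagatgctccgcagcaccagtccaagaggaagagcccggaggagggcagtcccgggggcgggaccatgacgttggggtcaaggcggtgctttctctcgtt
Ankrd37, chr8:45999851-46000100, minus strand: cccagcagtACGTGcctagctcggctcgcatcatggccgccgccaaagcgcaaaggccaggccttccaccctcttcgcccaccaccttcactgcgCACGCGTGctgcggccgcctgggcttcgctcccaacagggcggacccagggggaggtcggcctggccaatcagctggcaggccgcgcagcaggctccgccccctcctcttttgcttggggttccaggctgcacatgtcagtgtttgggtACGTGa
Bnip3, chr7:138909507-138909756, minus strand: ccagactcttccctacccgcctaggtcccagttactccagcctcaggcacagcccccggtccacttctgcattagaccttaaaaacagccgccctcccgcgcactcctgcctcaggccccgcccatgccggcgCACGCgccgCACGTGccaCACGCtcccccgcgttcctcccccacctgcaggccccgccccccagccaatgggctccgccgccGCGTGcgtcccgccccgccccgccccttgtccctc
Mgarp, chr3:51396548-51396797, minus strand: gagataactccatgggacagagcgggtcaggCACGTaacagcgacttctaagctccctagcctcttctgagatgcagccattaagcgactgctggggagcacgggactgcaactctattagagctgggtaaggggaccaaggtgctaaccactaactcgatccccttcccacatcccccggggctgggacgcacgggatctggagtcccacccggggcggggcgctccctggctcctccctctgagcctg
Slc16a3, chr11:120948817-120949066, plus strand: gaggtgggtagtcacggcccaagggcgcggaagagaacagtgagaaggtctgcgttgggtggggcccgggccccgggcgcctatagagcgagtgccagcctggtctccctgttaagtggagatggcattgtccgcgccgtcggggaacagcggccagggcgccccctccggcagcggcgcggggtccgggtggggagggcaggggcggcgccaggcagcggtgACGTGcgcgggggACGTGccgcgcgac
P4ha1, chr10:59323046-59323295, plus strand: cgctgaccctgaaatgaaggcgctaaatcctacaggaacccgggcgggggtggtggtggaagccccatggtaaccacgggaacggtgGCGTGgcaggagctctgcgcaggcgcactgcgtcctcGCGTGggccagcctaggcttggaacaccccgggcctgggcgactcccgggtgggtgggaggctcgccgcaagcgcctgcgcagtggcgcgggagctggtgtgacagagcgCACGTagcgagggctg
Slc2a1, chr4:119108495-119108744, plus strand: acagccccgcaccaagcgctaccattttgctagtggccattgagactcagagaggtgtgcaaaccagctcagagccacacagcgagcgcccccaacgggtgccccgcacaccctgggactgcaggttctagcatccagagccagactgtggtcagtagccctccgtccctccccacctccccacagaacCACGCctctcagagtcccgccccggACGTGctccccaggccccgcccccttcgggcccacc
The Bnip3 window holds 5 matches, between 117 and 35 bases before the start, and the Ankrd37 window holds 4. Egln3 and Mgarp hold 1 each. In the Slc16a3 window both matches are ACGTG and lie within the last 27 bases before the start. Among all mouse genes in the promoter table, 18.5% hold ACGTG in at least 1 such window, and 30.9% hold GCGTG. Both cores are more frequent among the 5908 genes with an entry that pass the minimum level used below. There 27.3% hold ACGTG and 53.05% hold GCGTG, so a GCGTG match is common among expressed genes. The 3 genes outside the rule were picked, with their windows known, as genes with 1 annotated start whose levels are followed along the score below. Others among the 15 highest differ: Aldoc, Eno1, Kdm3a and Pdk1 hold GCGTG in at least 1 window and ACGTG in none, and the Grhpr window holds neither. A match is a stretch of letters and not a measured binding site.

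The score formed a continuum without a gap at the threshold. The 10 members of lowest score lay between 1.03324 and 1.03434, and the 10 cells just below them between 1.03155 and 1.03318. Within 0.05 of the threshold there were 364 cells above it and 469 below. The cell of highest score reached 1.93 in vehicle and 1.90 in DFO, and 1663 cells scored 0. High-programme cells are therefore one end of a range.

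**Figure D1:**
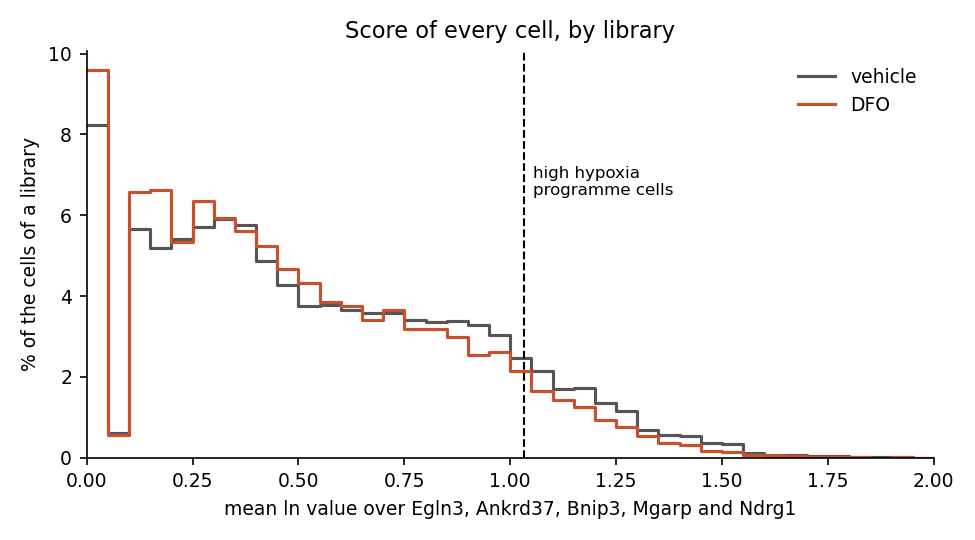
Distribution of the score (mean natural-log value over the 5 genes, x axis) as the percentage of the cells of each library per bin of 0.05 (y axis), with the threshold as a dashed line. Both libraries fall off smoothly through the threshold, and right of it the vehicle line lies above the DFO line up to a score of 1.60. From 1.60 to 1.65 the DFO line is the higher, with 6 cells against 4, and bins beyond hold 6 cells or fewer per library.

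The vehicle library held 1024 of the members, 11.8% of its cells (11.1% to 12.5%, Clopper-Pearson). The DFO library held 832, 8.44% of its cells (7.90% to 9.01%). The ratio of the DFO to the vehicle share was 0.718, and the intervals did not overlap. The whole distribution was placed lower in DFO: the median score was 0.479 in vehicle and 0.431 in DFO, and the 90th percentile 1.07 and 0.999. Choosing the top 5% gave a ratio of 0.667, choosing the top 20% gave 0.780, and thinning every cell to 10000 UMIs first gave 0.730. These are values of 2 libraries, and variation between cultures was not measured.

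Averaged over the members, Egln3 and Bnip3 supplied 30.7% and 30.5% of a cell's score, Ankrd37 20.2%, Ndrg1 16.1% and Mgarp 2.55%. Of the members, 231 carried UMIs of all 5 genes, 1248 of 4, 372 of 3 and 5 of 2. Mgarp was not detected in 1469 of the members and Ndrg1 in 365. The set was thus mostly cells with Egln3, Bnip3 and Ankrd37 together.

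Levels are given as CPM, the molecules of a gene summed over a group of cells and scaled to all its molecules. Egln3 stood at 213.6 CPM among vehicle members and 211.6 CPM among DFO members, against 61.0 and 60.1 CPM in the other cells. Bnip3 was at 205.5 and 215.9 CPM against 63.0 and 57.3 CPM. For Ankrd37 the levels were 106.6 and 97.7 CPM against 21.5 and 20.9 CPM, and for Ndrg1 78.0 and 74.1 CPM against 29.4 and 25.3 CPM. Mgarp was low throughout, at 9.19 and 9.48 CPM in members against 1.10 and 0.94 CPM in the others. These differences are what the rule selected.

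Cells were also scored on 4 of the genes and the one left out was read. In cells chosen without Egln3, Egln3 was at 168.9 CPM (vehicle) and 165.1 CPM (DFO) against 66.4 and 64.1 CPM in the remaining cells, log2 differences of 1.33 and 1.35. Ankrd37, Bnip3 and Mgarp, each left out in turn, gave log2 differences between 1.25 and 1.55. Ndrg1 was the weakest, at 48.7 against 33.0 CPM in vehicle and 43.0 against 28.0 CPM in DFO, log2 differences of 0.55 and 0.60. Each gene was thus higher where the other 4 were high, Ndrg1 least.

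Membership of a single cell was loosely determined when only 1 of 2 equal parts of its molecules was used. When the molecules of every cell were split at random into 2 equal parts and cells were chosen on each, 778 cells were picked by both out of 1856 per pick, or 41.9%. The pick on 1 part shared 71.0% of its cells with the members, which were chosen on all molecules. Agreement at the full depth was not measured. Cells chosen on 1 part still showed the programme in the molecules not used: Egln3 was at 179.4 CPM against 65.2 CPM in vehicle and 169.9 against 62.8 CPM in DFO. Ndrg1 was the weakest there, with log2 differences of 0.83 in vehicle and 1.02 in DFO. In cells thinned to 10000 UMIs, Egln3 was detected in 89.1% of vehicle members and 89.5% of DFO members, against 39.3% and 39.1% of the other cells. Unthinned the shares were 98.9% and 99.6% against 63.8% and 62.9%. For both sets of shares the members were chosen on all molecules, so these gaps are what the rule selected. By cluster, the lowest thinned share was 29.8% at the resolution used below and 24.3% at a finer one, both in DFO cells of megakaryocyte-like clusters. No cell type known to lack Egln3 was identified, so its background from free RNA was not set.

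Members were slightly shallower than the rest. Their median UMI count was 25929.5 against 28070.5 in vehicle and 25477.5 against 27256.5 in DFO, with 4917 against 5121 and 4906.5 against 5069 genes. Thinned to 10000 UMIs, the medians were 3030 against 3057 genes and 3051 against 3080. In 10 bins of the pooled cells by UMI count, 14.2% were members in the second lowest and 5.87% in the deepest. Cells under 3000 genes made up 3.32% of vehicle and 2.52% of DFO members, no more than the 3.84% and 4.12% among other cells. There were 24 barcodes present in both libraries, carried by 5 vehicle and 3 DFO members among others. Leaving these cells out gave a ratio of shares of 0.721.

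Across all genes, the programme of the members was narrow. Of 7389 genes outside the rule with a mean of 10 CPM or more, 50 were higher in members by at least 0.5 on the log2(CPM + 1) scale in both libraries, 0.677% of the genes, and 4 were lower, 0.0541%. Within vehicle alone 66 were higher (0.893%) and 15 lower (0.203%), and within DFO alone 53 (0.717%) and 12 (0.162%). The median over all genes was -0.03 in vehicle and -0.02 in DFO, with standard deviations of 0.164 and 0.143. Across these genes the differences in vehicle and in DFO had a Pearson correlation of 0.845. Genes are not independent replicates, and the 2 sets of cells share their rule and their threshold.

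Among the 50 higher genes, 27 (54%) belonged to the lists of HIF targets, glycolysis or oxygen sensing, and these 27 were 50.9% of the 53 list genes measured at this level. The 15 with the highest mean difference were Slc16a3, Aldoc, Ak4, P4ha1, Anxa2, Prelid2, Slc2a1, Selenbp1, Ddit4, Pgm2, Grhpr, Eno1, Kdm3a, Egln1 and Pdk1. Of the 37 higher genes with a promoter entry, 59.5% held ACGTG in a window of the kind printed above, against 27.3% of all measured genes with an entry. For GCGTG the shares were closer, at 62.2% and 53.05%, and for either core they were 86.5% and 65.1%. The 14 higher genes outside the hypoxia lists that have an entry held ACGTG in 57.1%. Genes with more annotated starts have more windows, and the 37 higher genes had 55 against 7494 for 5908 measured genes. Per window, ACGTG was in 41.8% of those of the higher genes and 23.6% of those of measured genes, and either core in 72.7% and 59.1%. For the higher genes outside the hypoxia lists, the shares per window were 42.1% for ACGTG, 36.8% for GCGTG against 47.2% of measured windows, and 57.9% for either core.

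Glucose entry and lactate exit stood out. Slc16a3, the monocarboxylate transporter MCT4 that exports lactate, was at 99.5 CPM in vehicle members against 41.7 CPM in the other vehicle cells, and at 86.8 against 29.8 CPM in the DFO library, log2 differences of 1.23 and 1.51. Slc2a1, the glucose transporter GLUT1, was at 83.2 CPM in vehicle members against 42 CPM in the other vehicle cells, and at 90.9 against 45 CPM in the DFO library, log2 differences of 0.97 and 1.00. Slc2a3, encoding GLUT3, was at 126 CPM in vehicle members against 80 CPM in the other vehicle cells, and at 109.9 against 65.3 CPM in the DFO library. All 3 transporters were higher in the members of both libraries. Slc16a1, the MCT1 transporter, went the other way, with log2 differences of -0.19 and -0.10.

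The enzymes between these transporters were higher nearly throughout. Of 20 measured genes of glycolysis and lactate export, 18 were higher in members of both libraries and 15 of them by at least 0.5, with list medians of 0.66 in vehicle and 0.69 in DFO. Hexokinase 2, Hk2, was at 60.6 CPM in vehicle members against 40 CPM in the other vehicle cells, and at 70.6 against 44.8 CPM in the DFO library. The aldolase gene Aldoc was at 29 CPM in vehicle members against 11 CPM in the other vehicle cells, and at 19.4 against 7.09 CPM in the DFO library, log2 differences of 1.32 and 1.33. Enolase, Eno1, was at 669 CPM in vehicle members against 361 CPM in the other vehicle cells, and at 616 against 341 CPM in the DFO library. Pyruvate kinase, Pkm, was at 1974 CPM in vehicle members against 1259 CPM in the other vehicle cells, and at 1740.1 against 1172 CPM in the DFO library. Every step from hexokinase to lactate dehydrogenase thus had at least 1 gene higher in members by at least the 0.39 of Gapdh in both libraries. Ldha, the lactate dehydrogenase subunit that favours lactate, showed log2 differences of 0.54 and 0.56, while Ldhb showed -0.02 and -0.18. Hk1 differed by only 0.23 and 0.17, and Gapdh by 0.43 and 0.39. Eno1b, a near-identical copy of Eno1, was listed at 5.59 CPM in vehicle members, and how the authors' counting split reads between such copies is not known.

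The HIF targets outside glycolysis were also higher in the members of both libraries. Of 47 listed, 40 are in the tables and 23 passed the minimum of 10 CPM. All 23 were positive in both libraries and 11 passed 0.5, with medians of 0.50 and 0.53. P4ha1, a subunit of the prolyl hydroxylase that matures collagen, was at 64.8 CPM in vehicle members against 29.3 CPM in the other vehicle cells, and at 59.5 against 27.7 CPM in the DFO library, log2 differences of 1.12 and 1.08. Ak4, a mitochondrial adenylate kinase, was at 29.4 CPM in vehicle members against 13.4 CPM in the other vehicle cells, and at 33.9 against 14.5 CPM in the DFO library, log2 differences of 1.08 and 1.17. Pdk1, the kinase that keeps pyruvate out of the mitochondrial dehydrogenase, was at 74.9 CPM in vehicle members against 40.7 CPM in the other vehicle cells, and at 71.8 against 40 CPM in the DFO library, log2 differences of 0.87 and 0.83. Each of the 3 was higher in members than in other cells of either library. Ddit4, an inhibitor of mTORC1, showed log2 differences of 1.01 and 0.87, Kdm3a, a histone H3 lysine demethylase, 0.87 and 0.86, and Bnip3l, the mitophagy receptor related to Bnip3, 0.60 and 0.66. Least different were Cxcr4, the receptor that holds HSC in marrow, at 0.04 and 0.05, and Wsb1, at 0.04 and 0.06. Among the targets below the minimum, Car12, a carbonic anhydrase, and Loxl2, a lysyl oxidase, were lower in members, with -0.24 and -0.15, and -0.36 and -0.29. Vegfa, the angiogenic factor, was below the minimum too: it was at 12 CPM in vehicle members against 7.19 CPM in the other vehicle cells, and at 9.57 against 5.96 CPM in the DFO library.

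**Figure D2:**
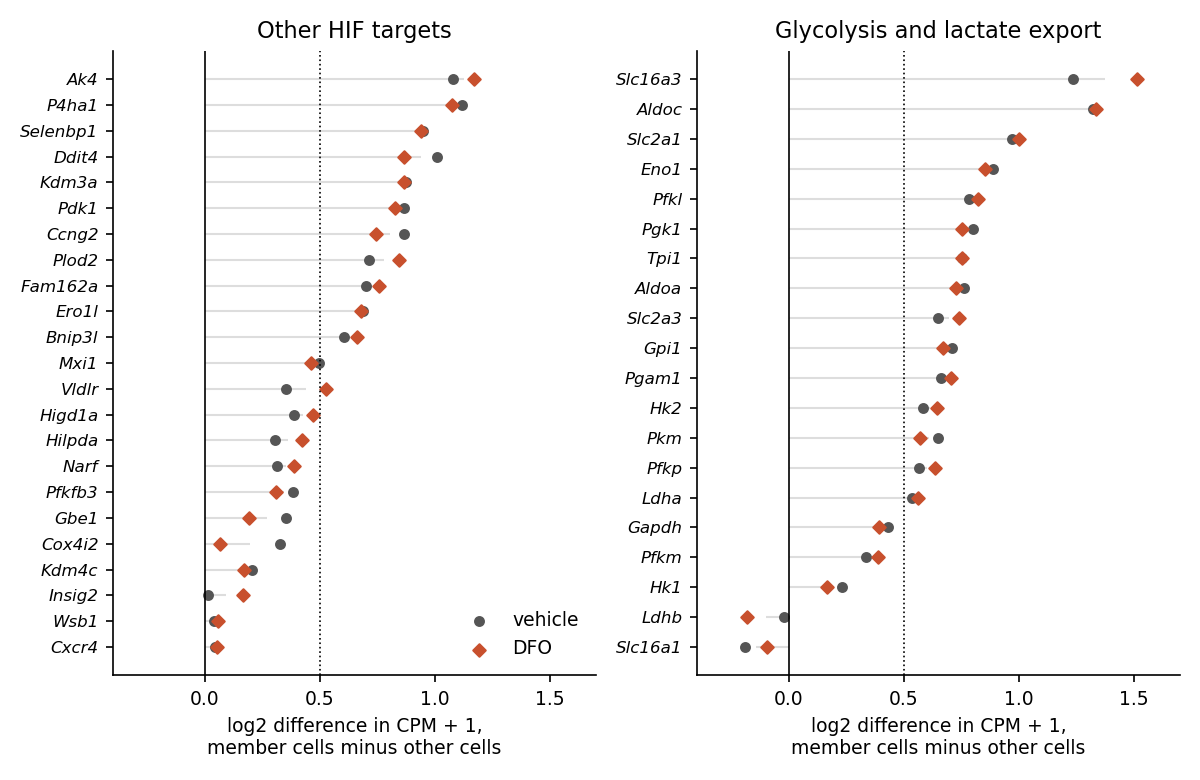
Log2 difference in CPM + 1 between member cells and other cells (x axis) for each measured HIF target outside the rule (left) and each measured gene of glycolysis and lactate export (right), with vehicle as circles, DFO as diamonds and the 0.5 line dotted. All 23 HIF targets lie right of 0, and Ldhb and Slc16a1 are the 2 glycolysis genes left of it.

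The oxygen-sensing machinery itself was split. Egln1, the main HIF prolyl hydroxylase and like Egln3 a HIF target, was at 105 CPM in vehicle members against 58.1 CPM in the other vehicle cells, and at 119 against 64.4 CPM in the DFO library, log2 differences of 0.84 and 0.88. It was the 1 gene of 10 measured in this list that passed 0.5. Hif1a, the HIF-1 alpha subunit, was at 40.7 CPM in vehicle members against 41.6 CPM in the other vehicle cells, and at 43.1 against 45.3 CPM in the DFO library, and thus lay at nearly the same level in members and other cells. Egln2, the hydroxylase not induced by HIF, was lower in members, with -0.29 and -0.23. Arnt, the HIF partner, showed 0.12 and 0.08, and Hif1an, the asparaginyl hydroxylase of HIF, 0.08 and 0.16. Among the parts of the VHL ligase, Rbx1, Eloc, Elob and Cul2 lay between -0.14 and -0.02. Vhl itself, below the minimum, was at 9.76 CPM in vehicle members against 8.77 CPM in the other vehicle cells, and at 11 against 8.97 CPM in the DFO library, log2 differences of 0.14 and 0.27. Hif3a, a further HIF alpha subunit gene, was also below it, at 3.35 CPM in vehicle members against 2.52 CPM in the other vehicle cells, and at 2.88 against 1.8 CPM in the DFO library, log2 differences of 0.30 and 0.47. Cited2, a HIF antagonist that competes for its coactivator, showed -0.16 and -0.04.

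Apart from hypoxia genes, the members carried more of 2 brakes on the cell cycle. Cdkn1a, encoding the CDK inhibitor p21, was at 69 CPM in vehicle members against 46.3 CPM in the other vehicle cells, and at 71.3 against 48.8 CPM in the DFO library, log2 differences of 0.56 and 0.54. Cdkn1b, encoding p27, showed 0.55 and 0.42, so that only its vehicle value passed 0.5. Cdkn1c, encoding p57, was between 3.61 and 4.12 CPM in all 4 groups of cells. Proliferation transcripts differed less: the S phase list had medians of -0.10 and -0.07 and the G2/M list -0.10 and -0.08, with none of the 28 and 30 genes past 0.5. Summed over the list, the median cell held 4901 CPM of G2/M transcripts among vehicle members and 5427 CPM among other vehicle cells, and 5087 against 5699.7 CPM in DFO. Mki67 showed 0.06 and 0.03. Of the p53 targets in the same list, Aen was lower in members, at -0.50 and -0.31, and Mdm2 differed by 0.04 and 0.03.

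Ribosome-building and mitochondrially encoded transcripts were lower as groups, with medians short of 0.5. Of 28 MYC targets, mostly nucleolar factors, 25 were lower in the members of both libraries, as were 3599 of all 7389 genes, with medians of -0.24 in vehicle and -0.19 in DFO. Rrs1, a ribosome assembly factor, was at 66 CPM in vehicle members against 92.5 CPM in the other vehicle cells, and at 77.4 against 101 CPM in the DFO library, log2 differences of -0.48 and -0.38. Bop1, which acts in large-subunit maturation, showed -0.45 and -0.32, and Npm1, nucleophosmin, -0.01 and 0.02. Outside the list, Bysl, a small-subunit factor, was among the 4 genes lower by 0.5 in both libraries, at 27.1 CPM in vehicle members against 40.9 CPM in the other vehicle cells, and at 28.8 against 43.2 CPM in the DFO library. Myc itself differed by -0.15 and -0.12. The 78 ribosomal protein genes had medians of 0.06 and 0.04.

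The median cell had 3.45% of its UMIs from the mitochondrial genome among vehicle members and 3.92% among other vehicle cells, and 4.04% against 4.42% in DFO. Of the 13 genes, 10 were lower in both libraries, beside the 3599 of 7389 over all genes. The complex I subunit mt-Nd1 was at 978 CPM in vehicle members against 1393 CPM in the other vehicle cells, and at 1352 against 1673 CPM in the DFO library, log2 differences of -0.51 and -0.31. By contrast mt-Nd6, the one coded on the other strand, was higher, with 0.46 and 0.28. The 57 nuclear genes of the respiratory chain had medians of 0.00 and 0.01. Among nuclear genes of mitochondria outside that list, Ndufaf4, a complex I assembly factor, showed -0.57 and -0.48, and Timm10, an import chaperone, -0.58 and -0.45.

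Other metabolic lists differed less. Of 19 measured cholesterol synthesis genes, 16 were higher in both libraries, as were 2331 of all 7389 genes, with medians of 0.15 in each. Hmgcs1, which opens the pathway, showed 0.45 and 0.34. Of 16 ATF4 targets, the genes of the amino acid response, 13 were lower in both libraries, beside 3599 of 7389 over all genes, with medians of -0.17 and -0.11. The other 3, Sars, Eif4ebp1 and Vldlr, were higher, Vldlr with 0.35 and 0.53, and it is on the HIF list too. Of the 14 mitophagy and autophagy genes past the minimum, those other than Bnip3l lay between -0.15 and 0.23, with medians of the whole list of 0.05 and -0.01. None of the 13 measured iron-handling genes passed 0.5 in both libraries.

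Along the whole score the hypoxia genes climbed without a step at the threshold. In vehicle, Slc16a3 was at 10.9 CPM in the lowest decile of the pooled cells, 24.6 CPM in the fifth, 94.8 CPM in the ninth and 99.5 CPM among the members. In DFO the same deciles held 8.41, 17.0, 78.1 and 86.8 CPM. Slc2a1 ran from 23.6 to 83.2 CPM in vehicle and from 26.4 to 90.9 CPM in DFO, and P4ha1 from 14.6 to 64.8 CPM and from 15.1 to 59.5 CPM. Cdkn1a ran from 39.2 to 69.0 CPM in vehicle and from 45.0 to 71.3 CPM in DFO. Between the lowest decile and the members, all 4 genes were thus higher at the upper end of both libraries. Ly6a, encoding Sca-1, went the other way, from 119.8 to 67.6 CPM in vehicle and from 149.5 to 73.5 CPM in DFO. With Ndrg1 left out of the score, the mean difference of Ly6a between members and other cells was 0.014 instead of -0.49. Its course along the deciles of that score was not read.

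**Figure D3:**
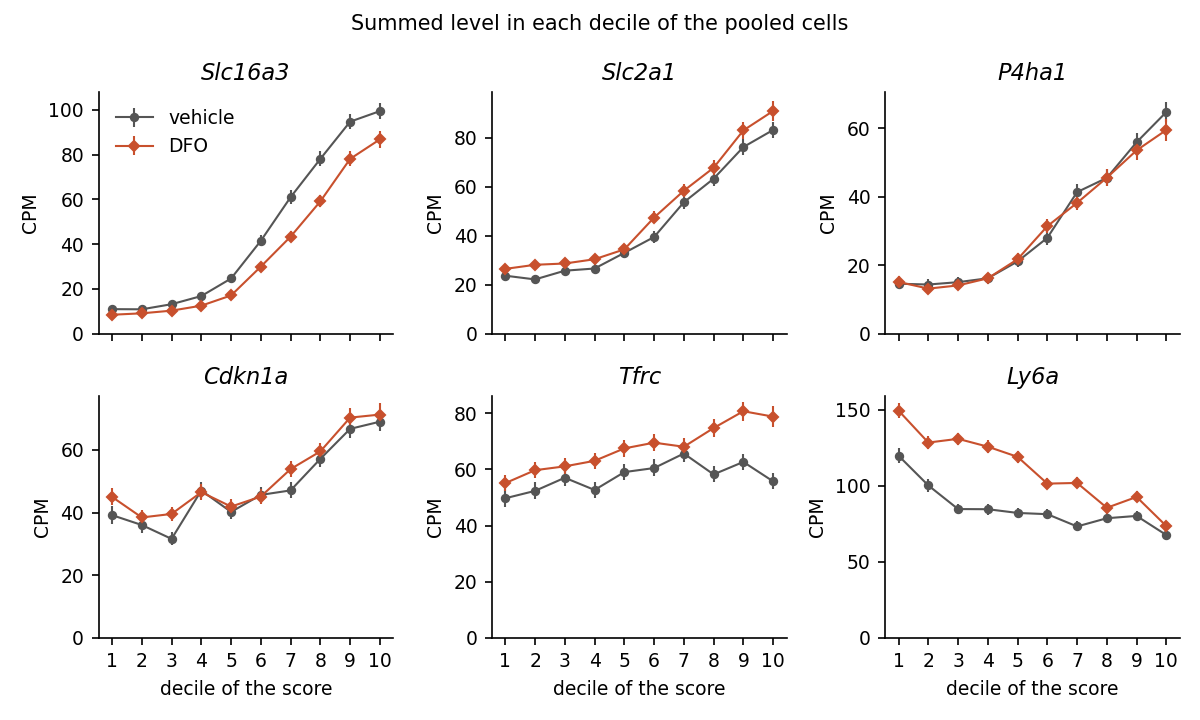
Summed CPM of 6 genes (y axes) in each decile of the pooled cells by score (x axis, 10 being the members), for vehicle as grey circles and DFO as orange diamonds, with exact 95% Poisson intervals. Slc16a3, Slc2a1, P4ha1 and Cdkn1a climb in both libraries, Ly6a descends, and Tfrc goes from 55.1 to 78.8 CPM in DFO and from 49.7 to 55.8 CPM in vehicle.

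Defining HSC transcripts were present in the members. Kit, the receptor for stem cell factor, was at 42.4 CPM in vehicle members against 34.4 CPM in the other vehicle cells, and at 44.8 against 40.4 CPM in the DFO library. The transcription factor gene Mecom was at 26.8 CPM in vehicle members against 30.1 CPM in the other vehicle cells, and at 28.8 against 33.5 CPM in the DFO library, and Hlf, another stem cell factor, at 69.7 and 69.4 CPM in members against 62 and 71.7 CPM. Of 14 measured HSC markers, 4 were higher and 8 lower in both libraries, beside 2331 higher and 3599 lower of all 7389 genes, with medians of -0.06 and -0.15. The median over the means of both libraries ran from -0.18 to 0.039 over the alternatives and kept its sign in 24 of 27, so no direction is read from the list. Ly6a showed -0.34 and -0.63, a difference that was absent without Ndrg1 in the score. Procr, a surface marker of stem cells, was at 3.9 to 5.91 CPM in all 4 groups of cells, and its mean difference went from -0.33 to 0.21 without Ndrg1.

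Transcripts of other lineages were also present in both. The 8 neutrophil and monocyte markers in the tables summed to a median of 200.5 CPM in vehicle members and 136.5 CPM in other vehicle cells, and 162.5 against 126.0 CPM in DFO. Prtn3, a granule protease, made up most of this, at 220.3 CPM in vehicle members against 156 CPM in the other vehicle cells, and at 191 against 147 CPM in the DFO library. Mpo was at 7.48 and 8.64 CPM in members against 4.99 and 4.24 CPM, and Csf1r at most at 0.0988 CPM. The 5 lymphoid markers summed to 103.7 against 73.6 CPM and 71.5 against 52.8 CPM, mostly Nkg7, with Cd79a at most at 0.0713 CPM. The 6 macrophage and dendritic markers summed to 54.6 against 32.7 CPM and 43.6 against 25.5 CPM. That was mostly the class II gene H2-Ab1, at 55.6 CPM in vehicle members against 31.9 CPM in the other vehicle cells, and at 44.5 against 23.9 CPM in the DFO library, while its partner H2-Aa was at most at 0.713 CPM. The 8 mast cell and basophil markers and the 1 eosinophil marker had medians of 0. The 13 erythroid markers summed to 678.5 against 624.3 CPM and 610.4 against 628.2 CPM. The 9 stromal and endothelial markers summed to 62.4 against 52.3 CPM and 64.3 against 49.6 CPM, with Col1a1 at most at 0.0443 CPM. The part of these transcripts in the members' differences was not tested.

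Clusters showed where the members sat. They were built without 255 genes: the 5 of the score and the listed HIF, oxygen-sensing, glycolysis, S phase and G2/M genes. Mitochondrially encoded and ribosomal protein genes were left out too. Genes outside these lists stayed in, so the clusters can still follow the cell cycle or the programme. High-programme cells occurred in all 9. In the HSC-like cluster, led by Sult1a1, Procr and Ly6a, they were 15.6% of the vehicle and 11.1% of the DFO cells, and this cluster held 26.5% of all members. This depended on the resolution of the clustering: at the finer resolution of 1, the HSC-like cluster, led by Wfdc2, Dlk1 and Procr, held 5.06% of all members. There members were 9.59% of the vehicle and 6.28% of the DFO cells, below the 11.8% and 8.44% of the whole libraries, so no place of the HSC-like cells above or below the rest is read from the clusters. In the erythroid-like cluster at resolution 0.5, led by Tspan33, Klf1 and Aqp1, they were 17.6% (14.7% to 20.9%) and 10.5% (7.58% to 14.1%). Its finer counterpart had 21.02% (16.8% to 25.8%) in vehicle and 8.62% (4.21% to 15.3%) in DFO, the latter from 10 members. That DFO interval holds the 8.44% of the whole library, so no raised share is read there in DFO. An unnamed finer cluster, led by Ccl9, Trp53inp1 and Tmem121, held 17.8% of all members, at 20.04% and 15.5% of its cells. At resolution 0.5 the megakaryocyte-like cluster, led by Serpinb2, Cavin2, Tesc and Pf4, had the fewest among named clusters, 7.80% and 5.02%. An unnamed cluster led by mitosis genes such as Nusap1 and Ube2c held 12.6% and 8.37%. One led by histone genes such as Hist1h1b held 9.07% and 8.29%.

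The share was lower in DFO than in vehicle in 8 of the 9 clusters. The exception was a shallow unnamed cluster, led by Rpgrip1 and Slc39a1, with a median of 6916.5 UMIs per cell, at 7.00% and 7.08%. At the finer resolution the matching shallow cluster had 7.00% and 7.22%, and a cluster of ordinary depth led by Slfn2 and Id1 was a further exception, with 6.02% (2.63% to 11.5%) in vehicle and 9.52% (6.32% to 13.6%) in DFO. The neutrophil and monocyte-like cluster, led by Mpo, Ctsg and Elane, held 15.4% and 12.5%, with 24 members in all. At resolution 0.5, every cluster and library with at least 50 members had a HIF target median, outside the rule, between 0.49 and 0.69. The glycolysis list lay between 0.57 and 0.85, MYC targets between -0.34 and -0.08 and mitochondrially encoded genes between -0.37 and -0.14. At the finer resolution these ranges were 0.44 to 0.74, 0.56 to 0.79, -0.33 to -0.04 and -0.41 to -0.04. The hypoxia differences were thus present within clusters as well as across them. MYC targets and mitochondrially encoded genes were lower within clusters too. In some of the finer ones this was little more than the -0.03 and -0.02 over all genes.

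**Figure D4:**
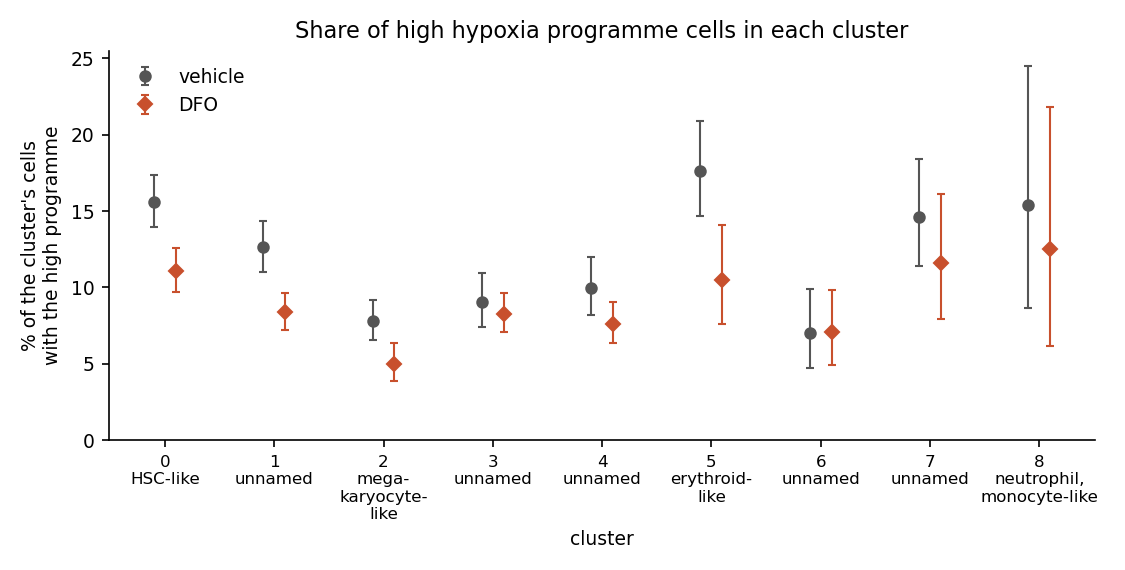
Percentage of the cells of each cluster that are members (y axis), by library, with exact 95% Clopper-Pearson intervals. DFO lies below vehicle in 8 of the 9 clusters, with overlapping intervals in some of them, and the shallow cluster 6 has 7.00% and 7.08%.

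Beside Bysl, the genes lower by 0.5 in both libraries were Cavin2, Timp3 and Serpina3g, of which Cavin2 and Timp3 are among the leading genes of the megakaryocyte-like cluster. Cavin2, a caveolar coat protein, was at 9.83 CPM in vehicle members against 15.7 CPM in the other vehicle cells, and at 4.43 against 8.93 CPM in the DFO library, log2 differences of -0.63 and -0.87. Timp3, an inhibitor of metalloproteinases, was at 11.7 CPM in vehicle members against 18.4 CPM in the other vehicle cells, and at 5.98 against 9.4 CPM in the DFO library. Serpina3g, a protease inhibitor, was at 359.6 CPM in vehicle members against 529 CPM in the other vehicle cells, and at 309 against 451 CPM in the DFO library. The platelet adhesion protein gene Mmrn1 showed -0.48 and -0.74, and Ehd3, an endocytic ATPase, -0.71 and -0.44. Clusters were also weighted equally, meaning that every group of cells took the cluster shares of the pooled members. The mean difference then moved from -0.75 to -0.27 for Cavin2, from -0.59 to -0.17 for Timp3 and from -0.57 to -0.24 for Ehd3. Chosen without Egln3, the members had mean differences of 0.058 for Cavin2 and 0.037 for Timp3. The megakaryocyte list had a median of -0.16 in each library, and its median over the means of both was -0.14, which became -0.012 with clusters weighted equally, 0.061 without Egln3 and -0.33 without Ndrg1. Its summed level was higher in members, 1232 against 964.5 CPM in vehicle and 835.6 against 752.9 CPM in DFO. Its most abundant gene Pf4, the platelet chemokine, was at 1653 CPM in vehicle members against 1423 CPM in the other vehicle cells, and at 685 against 584 CPM in the DFO library. Its mean difference of 0.22 ran from -0.24 without Ndrg1 to 0.67 with clusters weighted equally and kept its sign in 24 of 27 alternatives, so neither Pf4 nor the list is given a direction.

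Inside the high-programme cells, DFO and vehicle differed in few genes. Of the 7389 genes, 5 were higher in DFO members by at least 0.5 (0.0677%) and 41 lower (0.555%). In the other cells the counts were 1 (0.0135%) and 34 (0.46%). Both sets of members were chosen at 1 pooled threshold, so the 5 genes of the score say nothing on DFO here. Neither direction has a replicate.

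Hypoxia genes outside the rule had small median differences between the conditions. They climb with the score, and both libraries were cut at 1 pooled threshold, so their difference among members says little on DFO. In DFO members 14 of 23 HIF targets and 15 of 20 glycolysis genes were lower, beside 3147 of 7389 over all genes. The HIF targets had a median of -0.08 in members and -0.07 in other cells, and the glycolysis list -0.11 in each, beside 0.02 for all genes in each. Slc16a3 went from 99.5 to 86.8 CPM in members, -0.19, and from 41.7 to 29.8 CPM in other cells, -0.47. Aldoc was the 1 gene of the list past 0.5, from 29 to 19.4 CPM in members, -0.55, and from 11 to 7.09 CPM in other cells, -0.57. In the other direction, Egln1 showed 0.19 and 0.15, Slc2a1 0.13 and 0.10, and Hk2 0.22 and 0.16. Ak4 and Plod2 were at 0.20 and 0.15 in members. No HIF target outside glycolysis passed 0.5 either way.

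The genes furthest down in DFO members were platelet and megakaryocyte genes. Treml1, a platelet receptor, was at 20.8 CPM in vehicle members (19.2 to 22.6) and 5.72 CPM in DFO members (4.77 to 6.79), a log2 difference of -1.70. Pf4 was at 1653 and 685 CPM, -1.27. Tesc, a calcium-binding protein gene, was at 19.6 and 7.89 CPM, -1.21. The platelet glycoprotein genes Gp9 and Gp5 showed -1.19 and -0.96. All 11 measured megakaryocyte markers were lower in DFO, with a median of -0.60 in members and -0.57 in other cells. The size of some differences varied with the sex of the cells, called from their transcripts. Tesc showed -1.73 in female cells and -0.59 in male cells, and Cavin2 -1.38 and -0.28. The reason was not tested.

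The cell makeup of the members moved with these genes. The megakaryocyte-like cluster held 13.1% of the vehicle members and 7.69% of the DFO members, and the erythroid-like cluster 10.4% and 4.69%. Over all cells of the libraries, the megakaryocyte-like cluster held 19.7% in vehicle and 13.0% in DFO, and the erythroid-like cluster 6.98% and 3.77%. The lower shares in DFO were thus not particular to the members. With clusters weighted equally, at the pooled members' cluster shares in each group, 7 genes rather than 41 were lower in DFO members. Under that weighting the values were -1.12 for Treml1, -0.78 for Pf4, -0.84 for Gp9, -0.63 for Tesc, -0.44 for Gp5 and -0.46 for Cavin2, and the list median was -0.34. Several of these genes are themselves leading genes of that cluster, and the part of cell makeup in the differences that remain was not tested.

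On the higher side, mt-Nd3, a mitochondrially encoded subunit of complex I, was at 569 CPM in vehicle members (561 to 578) and 888 CPM in DFO members (876 to 901), 0.64. In other cells it was at 747 and 1078 CPM, 0.53, and it was the 1 gene past 0.5 there. Of the 13 mitochondrially encoded genes, 12 were higher in DFO members, beside 4242 of 7389 over all genes, with medians of 0.21 in members and 0.14 in other cells. Bex1 showed 0.58, Rpa3, a subunit of the single-strand DNA binding complex, 0.53, Lmo1 0.53 and Tesk1 0.53. Of 28 MYC targets 26 were higher in DFO members, where 4242 of all 7389 genes were, with medians of 0.18 and 0.12, and of 28 S phase genes 26, with medians of 0.14 and 0.10. In the separate comparison of members with other cells within each library, these 3 lists had medians below 0. That comparison uses the same member cells.

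Tfrc, the transferrin receptor that brings iron into cells and whose transcript is stabilised when iron is short, had one of the 6 highest differences inside the members. It was at 55.8 CPM in vehicle members (53 to 58.6) and 78.8 CPM in DFO members (75.2 to 82.6), a log2 difference of 0.49. In other cells it was at 58 CPM (57 to 59) and 66.7 CPM (65.8 to 67.7), a difference of 0.20. The intervals of members and other cells overlapped in vehicle and not in DFO. By deciles of the score, Tfrc in vehicle was lowest at 49.7 CPM in the first and highest at 65.7 CPM in the seventh, and in DFO it went from 55.1 CPM in the lowest to 80.8 CPM in the ninth and 78.8 CPM among members. With clusters weighted equally, the difference in members was 0.44. Whether the DFO response of Tfrc differs between members and other cells could not be tested with 1 library per condition. The iron-handling list as a whole had a median of 0.02 in members: the ferritin chains Fth1 and Ftl1 showed -0.01 and 0.01, and Pcbp1, an iron chaperone, 0.27.

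**Figure D5:**
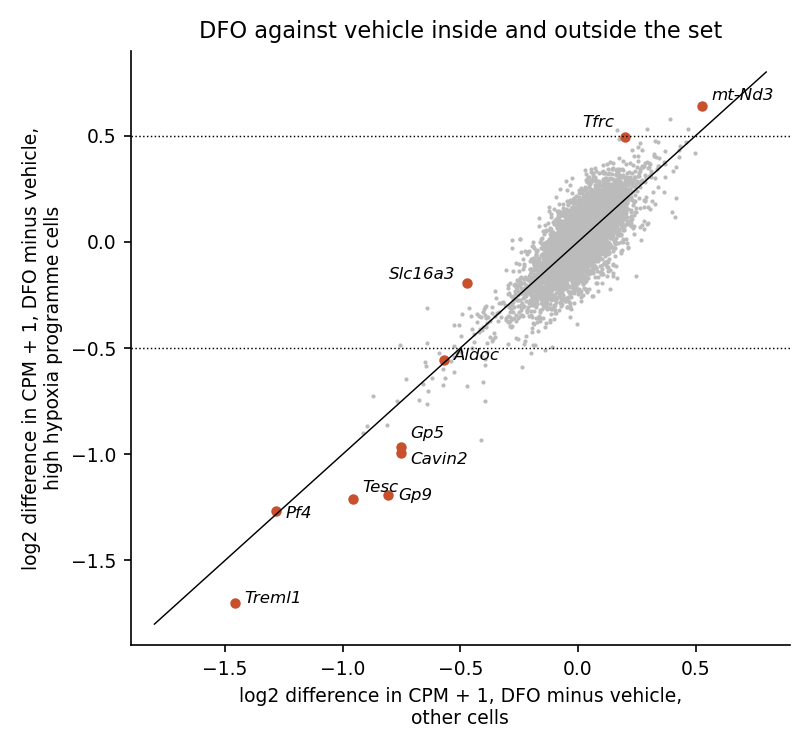
Log2 difference in CPM + 1 between DFO and vehicle in other cells (x axis) and in high-programme cells (y axis) for the 7389 measured genes outside the rule, with 10 genes named, the line of equality and dotted lines at 0.5 and -0.5. Treml1 and Pf4 lie lowest, mt-Nd3 is past 0.5 on both axes, and Tfrc lies above the line at 0.49 against 0.20.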

How the data were processed

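Single-cell RNA libraries of cultured mouse HSC, 1 per condition, were analysed from the authors' deposited natural log (ln) values per gene and cell. FastQC 0.11.9, Trim Galore 0.6.5, Cell Ranger 3.0.2 and build mm10 are named in the submitters' processing notes. The sources used here do not give the cell filter. Back-transformed, the deposited values resolved into whole molecules (100% within 0.05), with each cell scaled to 27408. The libraries hold 260938938 (vehicle) and 284326017 (DFO) molecules, with medians of 27805.5 and 27114 per cell.

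Molecules were summed over the cells of a group, scaled to CPM and compared as log2((CPM + 1)/(CPM + 1)), keeping genes whose mean over both libraries reached 10 CPM. Intervals are exact 95% Poisson or Clopper-Pearson intervals. Molecules from PCR-amplified libraries were counted by UMI. Cells were clustered with Leiden at resolution 0.5 (2000 variable genes, 30 components, 15 neighbours). A name needed 3 detected markers, and 2 of them among the top 10 genes by fold, the latter set after seeing the clusters. No doublet caller was run. With equal cluster weights, every group of cells took the pooled members' cluster shares, and the clusters did not all count the same. Cells with molecules of both sexes, 20 vehicle and 15 DFO members among them, were left out as an alternative. Motifs were counted on both strands. The text names the 15 highest and 10 lowest genes between members and other cells, the 6 highest and lowest between conditions, the extremes of each list, the oxygen-sensing genes and a short list of markers. Others (Slc2a3, Pkm, Prtn3, Nkg7 and H2-Ab1 among them) were chosen after their values were seen. The members and lists were chosen with earlier results of these data known. The comparison was run on simulated molecule sums with known changes, which held counting error alone and no choice of cells by score. The member rule was run on simulated cells set further apart than these. Neither shows how well members are told apart here. Software was Python 3.11.15, numpy 2.4.6, scipy 1.17.1, scanpy 1.11.5 and leidenalg 0.10.2.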

Additional observations from a re-analysis of the deposited data

How the results depend on the processing

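The ratio of member shares was below 1 under 18 of 19 alternatives (0.667 to 0.780) and 1.00 with the top 10% taken within each library, by construction. The HIF target median between members and other cells was 0.48 and ranged from 0.41 to 0.63. It moved to 0.57 for the top 5%, 0.56 without cells of both sexes, 0.57 in male cells, 0.55 without cluster 6 and 0.63 with a minimum of 20 CPM. Inside the members its DFO difference was -0.08 and ranged from -0.12 to -0.05.

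The count of higher genes, 50, moved to 33 with a pseudocount of 10 CPM and 89 with no minimum. The count of lower genes, 4, rests on the settings. It was 0 with the top 10% taken within bins of UMIs and with the top 20%, and 1 with unit-SD scaling or a pseudocount of 10 CPM. It was 2 with thinning, within each library, with the split of molecules, with a minimum of 20 CPM or with equal cluster weights. It was 7 in male cells, 8 in female cells or with a minimum of 5 CPM, 12 with the mean of cell CPM, 13 with the ln of summed genes, 15 with no minimum, 19 without Ndrg1 and 27 for the top 5%.

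The 5 genes higher in DFO members became 1 with a pseudocount of 10 CPM, 2 with equal cluster weights, and 3 with median-of-ratios scaling or a minimum of 20 CPM. They became 8 within each library, without Ankrd37 or with the mean of cell CPM, and 9 with the split of molecules. They became 10 with thinning, the ln of summed genes or a minimum of 5 CPM, 17 for the top 5% or female cells, 29 in male cells and 58 with no minimum. The 41 lower ones became 7 with equal cluster weights, 12 with a pseudocount of 10 CPM, 21 and 81 with minimums of 20 and 5 CPM, 77 in female cells and 211 with no minimum.

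Of 2403 values for single genes and other lists under the alternatives, 1970 moved by less than the counting interval and 430 by more without reversing a value past 0.5. The other 3 were values past 0.5 in size that changed sign: Cavin2 at 0.058 and Timp3 at 0.037 when Egln3 was left out, and Timp3 at 0.020 for the top 20%. Smaller values that changed sign, as for Pf4, Procr and Ly6a, are counted among the 1970 and 430. The cause was not tested. Clustering at a resolution of 1 moved the HSC-like cluster from 26.5% to 5.06% of members. Equal cluster weights and leaving out shared barcodes or cluster 6 were chosen after seeing the data. No paired analysis was possible because each condition has 1 library. Depth limits single cells and genes under 10 CPM, such as Mgarp and Vegfa. Picks on 2 equal parts of the molecules, each shallower than the data, shared 41.9% of their cells.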
